A study of Mus musculus with 6 samples.

Results

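The positions described here are single cytosine positions of the mouse genome that were more methylated than a reference library in each of 4 pluripotent stem cell lines, and that neither of the 2 tables of germline stem cells lists. They were chosen by their deposited methylation differences, which had to be above 0 in iPSC 1, iPSC 2, gPSC 1 and gPSC 2. Of 448072 positions listed in any table, 5214 met the rule (1.16%). They are called line-shared positions below. A further 31103 positions were high in the 4 lines and also in germline stem cells, and 12 were high in the 4 lines and low in germline stem cells. The line-shared positions were therefore 14.4% of the 36329 positions high in all 4 lines, which themselves were 8.11% of all listed positions. Since the rule used these values, the counts are a description and no test was made on them.

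The assay was reduced representation bisulfite sequencing, which converts unmethylated cytosines and reads CpG-rich fragments of a digested genome. All 6 cultured mouse lines share the OG2 strain background, which brings a transgenic Pou5f1 reporter into every group. They were 1 line of germline stem cells (GSC), 2 independent lines of induced pluripotent stem cells (iPSC) derived from GSC, 2 independent lines of germline-derived pluripotent stem cells (gPSC) and 1 line of embryonic stem cells (ESC). The sources used here do not give animal age, passage or feeder layers, and GSC and ESC rest on 1 line each. The reference library is not named in the tables and is taken to be ESC, the sample without tables. By its title, the series deals with traces of the cell of origin after reprogramming. For that question a position missing from the GSC tables is ambiguous, because the tables hold called positions only and GSC can there be unchanged or unmeasured.

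In mammals, DNA methylation sits mainly on the cytosine of CpG dinucleotides, and the 2 strands of a CpG are copied from each other by the maintenance methyltransferase, so that both usually carry the same mark. CpG-rich promoters of broadly used genes are normally kept free of methylation. A set of promoters of germline genes is the known exception, being methylated in somatic cells and silenced in the early embryo until germ cells form.

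Nearly all line-shared positions that could be read against sequence were CpG cytosines. Of the 213 that lay within a RefSeq promoter sequence (250 bp before to 50 bp after a gene start, GRCm38.p6), 117 fell on the C and 95 on the G of a CG on the plus strand, and 1 on neither. The tables thus report the 2 strands of a CpG as separate positions 1 bp apart. Another line-shared position lay 1 bp away from 46 of them (0.882%). In at least 1 of the 4 lines, a position listed with lower methylation lay 1 bp away from 466 (8.94%). In all 4 lines this held for 247 (4.74%). For 190 (3.64%) the lower values mirrored the high ones to within 5 points in all 4 lines. A neighbour counted for the 46 had to be high in all 4 lines and unlisted in GSC. The 466 therefore rest on a looser rule. Among positions high in the 4 lines and in GSC, the share with a lower position in at least 1 line was 3.28%. Among all positions high in any of the 4 lines it was 13.7%. The last count also takes in any position that is itself low in another line, so it is not the same measure. In the promoters of the named and most often met genes, 80 of the 466 had a known base. In all 80 the lower position was the other base of the same CpG. The 466 positions are called opposed. The other 4748 are called unopposed.

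The sequences of 6 promoters show how differently these positions were laid out. The 3 promoter sequences with the most line-shared positions are printed first, then Mthfsl, which held the most unopposed ones, and Tuba3a and Mael, which are germline genes. Sequences are RefSeq, build GRCm38.p6, 5′ to 3′ on the strand of the gene, and capitals mark the line-shared bases.
Hnrnpu, chr1:178337766-178338065, minus strand: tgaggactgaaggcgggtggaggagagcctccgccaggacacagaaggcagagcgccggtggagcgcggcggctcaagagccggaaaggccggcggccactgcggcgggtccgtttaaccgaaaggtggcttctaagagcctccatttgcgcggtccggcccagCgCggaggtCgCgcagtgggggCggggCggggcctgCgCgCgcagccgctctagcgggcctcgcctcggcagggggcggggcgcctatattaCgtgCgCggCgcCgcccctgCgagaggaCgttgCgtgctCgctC
Ywhag, chr5:135934592-135934891, minus strand: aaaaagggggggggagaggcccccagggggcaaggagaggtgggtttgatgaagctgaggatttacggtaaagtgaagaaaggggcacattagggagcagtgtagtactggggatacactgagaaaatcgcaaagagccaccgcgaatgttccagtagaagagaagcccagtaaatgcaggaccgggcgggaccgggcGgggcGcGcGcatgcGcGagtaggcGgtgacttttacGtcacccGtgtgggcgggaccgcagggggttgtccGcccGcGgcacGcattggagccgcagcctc
Epc2, chr2:49451236-49451535, plus strand: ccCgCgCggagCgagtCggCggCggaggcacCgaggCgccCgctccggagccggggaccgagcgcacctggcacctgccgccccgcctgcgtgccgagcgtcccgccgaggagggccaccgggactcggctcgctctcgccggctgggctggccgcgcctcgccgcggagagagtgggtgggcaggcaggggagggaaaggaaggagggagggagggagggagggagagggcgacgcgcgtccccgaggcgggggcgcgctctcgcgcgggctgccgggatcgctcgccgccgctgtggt
Mthfsl, chr9:88719538-88719837, minus strand: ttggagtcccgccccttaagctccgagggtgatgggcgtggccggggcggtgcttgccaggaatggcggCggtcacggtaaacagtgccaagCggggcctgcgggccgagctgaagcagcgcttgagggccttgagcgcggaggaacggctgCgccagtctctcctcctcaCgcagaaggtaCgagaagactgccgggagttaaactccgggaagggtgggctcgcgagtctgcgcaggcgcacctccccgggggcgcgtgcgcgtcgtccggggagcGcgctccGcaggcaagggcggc
Tuba3a, chr6:125286032-125286331, minus strand: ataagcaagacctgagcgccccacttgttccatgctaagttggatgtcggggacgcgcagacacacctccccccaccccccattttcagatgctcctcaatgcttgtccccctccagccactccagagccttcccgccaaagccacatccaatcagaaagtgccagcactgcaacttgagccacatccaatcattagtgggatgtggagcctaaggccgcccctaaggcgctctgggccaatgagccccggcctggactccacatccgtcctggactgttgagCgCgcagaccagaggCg
Mael, chr1:166238695-166238994, minus strand: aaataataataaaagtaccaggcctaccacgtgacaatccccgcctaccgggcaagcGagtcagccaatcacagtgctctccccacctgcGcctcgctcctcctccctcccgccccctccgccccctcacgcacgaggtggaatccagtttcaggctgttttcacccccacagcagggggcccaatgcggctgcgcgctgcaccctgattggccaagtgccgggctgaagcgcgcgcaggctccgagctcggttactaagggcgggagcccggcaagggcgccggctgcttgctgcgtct
In the Hnrnpu sequence all 19 marked bases are C, in Ywhag all 13 are G and in Epc2 all 10 are C, and each of these bases had an opposed call on its partner. In Mthfsl 5 marked bases are C and 2 are G, none opposed. Tuba3a has 3 unopposed C and Mael 2 unopposed G. The windows also differed in CpG content, with 41 CG in Hnrnpu, 23 in Ywhag, 47 in Epc2, 35 in Mthfsl, 12 in Tuba3a and 24 in Mael.

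Over all promoter sequences, 54 held an opposed position and 50 an unopposed one. The median number of CG was 28.5 in the former and 10.5 in the latter, against 23 in the 6088 sequences with any listed position and 7 in all 32851 sequences. The motif CCGG, which is its own reverse complement and is the cut site of the enzyme commonly used in this assay, was in 100% of both kinds. It was in 98.6% of sequences with a listed position and in 52.8% of all sequences.

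The size of the differences was intermediate and similar in the 4 lines. In iPSC 1 the line-shared positions ranged from 25.01 to 100 percentage points above the reference, with a median of 56.4. The medians were 54.3 points in iPSC 2, 62.1 in gPSC 1 and 59.2 in gPSC 2, with lowest values of 25.05, 25.03 and 25.03 and highest values of 100 points. The ranges of the 4 lines overlapped almost entirely. Unopposed positions had medians of 58.0, 55.8, 64.5 and 61.0 points in iPSC 1, iPSC 2, gPSC 1 and gPSC 2, and opposed ones 40.9, 35.9, 35.4 and 41.9 points. The opposed positions were thus the ones nearer to the threshold in each line. The positions high in the 4 lines and in GSC had medians of 60.1, 59.7, 66.4 and 63.6 points, and 76.7 points in GSC.

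**Figure D1:**
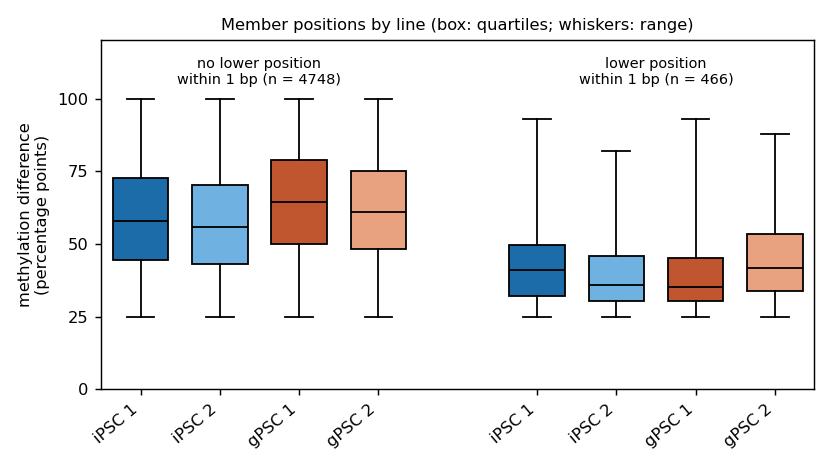
Methylation difference from the reference in percentage points at line-shared positions in the 4 lines, split by whether a position with lower methylation was listed within 1 bp; boxes span the quartiles, lines in the boxes are medians and whiskers the range. The 4748 unopposed positions have medians of 55.8 to 64.5 points and the 466 opposed ones 35.4 to 41.9 points.

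At a single position the highest and lowest line were a median of 15.3 points apart. In all 4 lines the difference reached at least 50 points at 2395 positions (45.9%) and at least 75 points at 501 (9.61%). The first count was 2353 (49.6%) among unopposed and 42 (9.01%) among opposed positions. At 9 positions it was 100 points in every line, which means that each line read as fully methylated and the reference as unmethylated there. None of these 9 was opposed or had a GSC position within 100 bp. One lay 1831 bp from the start of Ehd2, an ATPase of the EHD family, 4 lay in gene bodies, among them Sox5, a transcription factor of cartilage and neurons, and 4 lay outside genes. If the reference is the same library for each line, its level at a position cannot exceed 100 minus the largest difference. That bound had a median of 32.6% and was at or below 10% at 629 positions (12.1%).

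At the other end, the lowest of the 4 lines was under 30 points at 649 positions (12.4%) and under 26 points at 127, of which 61 were opposed. Just outside the rule were positions high in 3 lines and unlisted in the other line and in GSC. There were 2808 that missed iPSC 1, 4065 that missed iPSC 2, 6051 that missed gPSC 1 and 2102 that missed gPSC 2, with median differences over the other 3 lines of 49.3, 49.4, 51.1 and 57.4 points. No position unlisted in GSC was high in 3 lines and low in the other. The line that most often removed a position was therefore gPSC 1, the line with the highest median at the positions that stayed.

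The 2 kinds of line overlapped at most positions. The mean of the gPSC lines exceeded that of the iPSC lines at 3645 positions (69.9%), and both gPSC lines were above both iPSC lines at 1591 (30.5%). The reverse held at 366 (7.02%). The median gPSC minus iPSC difference was 3.71 points. Positions high in the 4 lines and in GSC gave 27.4% and 8.02% for the same counts and a median of 3.18 points. Among opposed positions the gPSC mean was higher at 53.4%.

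Most line-shared positions stood alone. No other one lay within 1000 bp of 3461 positions (66.4%). The share was 48.0% for the 31103 positions high in the 4 lines and in GSC, counted among themselves. A larger set leaves fewer positions alone by its density, so these shares are not compared. Counting only neighbours of their own kind, unopposed positions stood alone in 69.4% and opposed ones in 43.3%. The place was taken from the RefSeq gene table (GRCm38.p6), with a promoter defined as 2000 bp before to 500 bp after a start, for the 5044 positions on chromosomes other than 18. Promoters held 579 (11.5%, 95% Wilson interval 10.6 to 12.4), gene bodies 2279 (45.2%, 43.8 to 46.6), and 2186 (43.3%, 42.0 to 44.7) were outside genes. A gene whose start has no entry in the promoter table counts as body throughout. All listed positions had 22.6% in promoters, 48.8% in bodies and 28.7% outside, and positions high in the 4 lines and in GSC 5.03%, 49.5% and 45.5%. These intervals reflect counting alone, and adjacent positions are not independent.

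The opposed positions made up much of the promoter share. Of those off chromosome 18, 264 of 454 (58.1%) were in promoters and 256 lay within 500 bp of a gene start, and their median distance to a start was 310 bp. Of the unopposed positions 315 of 4590 (6.86%, 6.17 to 7.63) were in promoters and 199 (4.34%) within 500 bp of a start, with a median distance of 29739 bp. That median was 30251 bp for positions high in the 4 lines and in GSC and 13225 bp for all listed positions. Unopposed line-shared positions were thus mostly far from gene starts, in and between genes, at shares within 4 points of those of the positions that GSC also lists. The authors' own annotation named a promoter for 598 line-shared positions (11.5%), an exon for 427, an intron for 1270 and no feature for 3449. It covers one strand better than the other, since 88.4% of listed positions in plus-strand genes carry a feature and 24.0% in minus-strand genes.

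**Figure D2:**
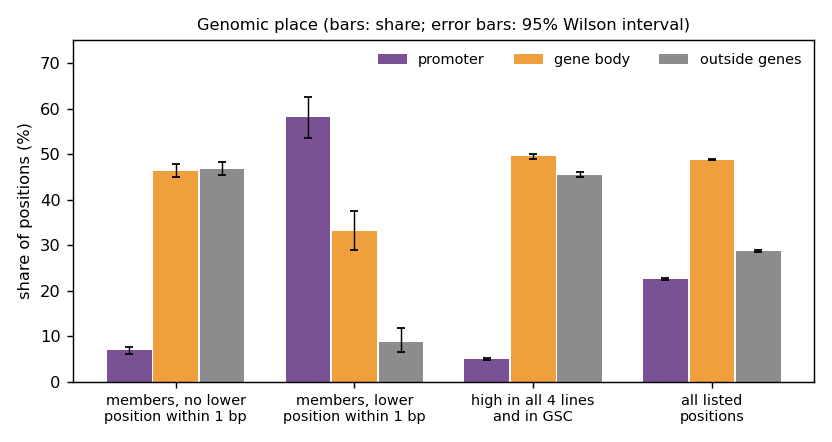
Share of positions in promoters, in gene bodies and outside genes for 4 sets, chromosome 18 left out; bars are shares in percent and error bars 95% Wilson intervals for counting error. Promoters hold 58.1% of opposed line-shared positions and 6.86% of unopposed ones, against 5.03% of positions high in the 4 lines and in GSC.

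By chromosome the line-shared positions ran from 31 on Y and 92 on chromosome 14 to 438 on chromosome 2. Per 100 positions high in all 4 lines there were 26.3 on Y, 16.8 on chromosome 2, 16.5 on chromosome 1, 10.2 on chromosome 8 and 9.35 on chromosome 14. The Y positions had medians of 70.8, 71.4, 73.3 and 76.2 points in iPSC 1, iPSC 2, gPSC 1 and gPSC 2, and none was opposed. The 242 on X had 57.5, 56.5, 63.5 and 59.2 points, close to the medians over all chromosomes. Copy-rich sequence of the Y can draw reads from several places, which was not tested.

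Clusters were defined as runs in which every 3 consecutive line-shared positions spanned at most 1000 bp. There were 211, holding 937 of the 5214 positions. Their median size was 4 positions and their median length 102 bp, 100 had exactly 3 positions, 65 had 5 or more and 10 had 10 or more. By place, 49 touched a promoter, 83 lay in gene bodies and 79 outside genes, with median cluster means of 43.1, 53.1 and 56.4 points. Unlike the shares of positions, the cluster counts by place include chromosome 18. It has no promoter entries here, so its clusters count as body or outside genes. In 39 clusters every position was opposed, in 7 some were and in 165 none was. Opposed positions occurred in 29 of the 49 promoter clusters, 15 of the 83 body clusters and 2 of the 79 clusters outside genes. Without the opposed positions 165 clusters with 673 positions were left, of which 20 touched promoters.

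Of the 148 positions in the 12 largest clusters, 105 were opposed, in 8 clusters, and the other 4 clusters held none. The largest was at Hnrnpu, an RNA-binding protein of the nuclear matrix (chromosome 1, 178337766 to 178337901, across the start in the RefSeq promoter entry). The RefSeq span of the gene reaches to 178338891, so the cluster lies inside that span. The cluster's 19 positions averaged 46.6 points above the reference in iPSC 1, against 35.4 for iPSC 2, 35.5 for gPSC 1 and 36.4 for gPSC 2. The 19 positions listed as low inside these 136 bp or 1 bp outside them, counted in the same way for each cluster below, averaged −46.6, −34.8, −35.6 and −36.2 points. In each line the low values mirrored the high ones, and all 19 line-shared positions had a partner whose difference summed with theirs to within 5 points of 0 in all 4 lines. GSC had no listed position there or within 100 bp.

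Ywhag, a 14-3-3 adaptor protein (chromosome 5, 135934586 to 135934693, across the gene start), had 14 positions with 26.6, 27.4, 29.5 and 43.3 points in iPSC 1, iPSC 2, gPSC 1 and gPSC 2. Its 15 low positions averaged −27.5, −27.7, −29.7 and −43.6 points, so that gPSC 2 stood highest among the high and lowest among the low values. Epc2, a homologue of enhancer of polycomb (chromosome 2, 49451176 to 49451276), had 14 positions with 29.6, 28.7, 29.7 and 31.0 points. Its 14 low ones had −30.2, −29.5, −29.6 and −31.4. This stretch lay upstream of the start in the RefSeq promoter entry but inside the RefSeq span of the gene. Neither cluster had a GSC position within 100 bp.

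The same pairing held for 5 more of the 12. Dennd1b, an exchange factor for a Rab GTPase (chromosome 1, 138963694 to 138963810), had 14 positions at 28.9, 35.3, 26.2 and 31.3 points in the same order of lines. Klf11, a Kruppel-like transcription factor (chromosome 12, 24651554 to 24651643), had 13 at 48.6, 34.0, 33.7 and 56.0 points, 12 of them opposed. Elk4, an ETS transcription factor (chromosome 1, 132007628 to 132007719), had 12 at 33.8, 32.6, 35.5 and 45.7 points. These 3 clusters also had both high and low GSC positions within 100 bp. Hdgfl3, of the hepatoma-derived growth factor family (chromosome 7, 81934055 to 81934224), had 11 at 33.6, 28.0, 26.6 and 36.8 points. Atp8b2, a phospholipid flippase (chromosome 3, 89963302 to 89963413), had 9 at 44.6, 30.9, 32.2 and 52.4 points. All of these 8 opposed clusters lay in promoters, within 320 bp of a start as measured from the cluster's middle.

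Among 26 clusters with at least 3 positions inside a promoter sequence, 21 were opposed throughout, and in all 21 the readable line-shared bases were on one strand only. Of the 5 others, 4 were on one strand and Mthfsl on both. Neither coverage nor reads per strand are in the tables, and their part in the opposed calls was not tested.

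**Figure D3:**
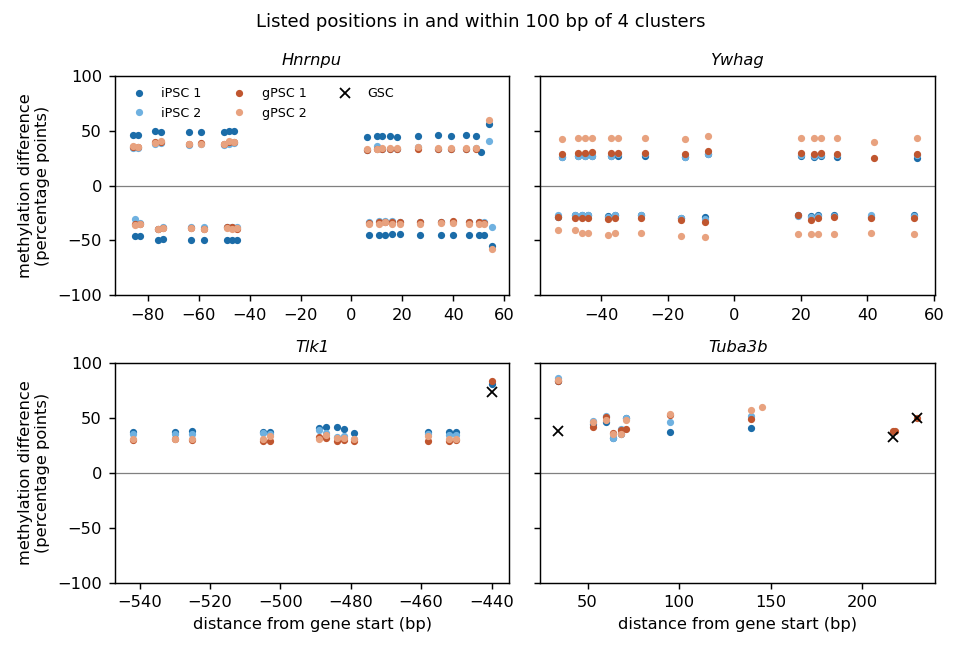
Methylation difference in percentage points against distance from the gene start in bp for every listed position in and within 100 bp of the clusters at Hnrnpu, Ywhag, Tlk1 and Tuba3b; dots are the 4 lines and crosses GSC. At Hnrnpu and Ywhag high and low values mirror each other around 0, whereas Tlk1 and Tuba3b have high values only. In iPSC 1 at Hnrnpu the 19 line-shared positions average 46.6 points and the 21 low positions plotted −46.9.

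The largest unopposed cluster was at Tlk1, a Tousled-like serine/threonine kinase linked to chromatin assembly (chromosome 2, 70825930 to 70826022). The middle of the cluster lay 496 bp upstream of the start in the nearest RefSeq promoter entry. The RefSeq span of the gene reaches to 70825816, closer to the cluster. The 13 positions averaged 38.7 and 35.0 points in the iPSC lines and 30.1 and 31.8 points in the gPSC lines. Within a line the values were even, from 36.3 to 42.1 points in iPSC 1 and from 28.8 to 32.8 in gPSC 1, and both iPSC lines averaged above both gPSC lines. GSC had 1 high position within 100 bp.

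The second lay in Mocs3, a gene of molybdenum cofactor synthesis, and upstream of its neighbour Dpm1, a subunit of dolichol-phosphate mannose synthase (chromosome 2, 168231285 to 168231329). Its 10 positions averaged 56.4, 87.6, 59.9 and 80.6 points in iPSC 1, iPSC 2, gPSC 1 and gPSC 2, so lines of the same kind differed by over 20 points. GSC had 1 high position within 100 bp. Tafa1, a secreted chemokine-like protein of the brain (chromosome 6, 96165547 to 96165864), held 10 positions deep in its body, 52551 bp from the start, at 42.7, 38.8, 40.9 and 42.2 points. These 4 means lay closer together than those of any other of the 4 largest unopposed clusters. Single positions at Tafa1 ran from 25.6 points in gPSC 2 to 100 in iPSC 1. GSC had 1 high position inside this cluster and 1 low one within 100 bp. Mthfsl, a relative of the folate enzyme methenyltetrahydrofolate synthetase (chromosome 9, 88719552 to 88720613), held 9 positions over 1062 bp at 66.2, 42.8, 48.3 and 45.2 points. GSC had none listed within 100 bp. Reads from a close relative of this gene could map there, which was not tested.

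Farther down the order, unopposed clusters lay mostly away from starts. Mrtfb, a coactivator of serum response factor (chromosome 16, 13270834 to 13271005), held 8 positions at 57.0, 51.9, 55.0 and 53.9 points. Asic2, an acid-sensing ion channel (chromosome 11, 81241403 to 81241554), held 8 at 50.1, 45.7, 50.4 and 46.1 points. Outside genes, a cluster of 8 on chromosome 10 (72309228 to 72309317) averaged 52.1, 49.4, 58.6 and 64.2 points, and its nearest start was 231513 bp away. Clusters of 7 stood on X (36401284 to 36401446), at 66.3, 60.0, 66.4 and 67.6 points, and on Y (74732554 to 74732698), at 59.7, 65.5, 61.5 and 62.8 points. In these 5 clusters the 4 lines were within 15 points of each other. Within 100 bp GSC had 3 high positions at Mrtfb, 1 high on chromosome 10 and 1 high on Y. It had 1 low position at Asic2 and 2 low ones on X.

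**Figure D4:**
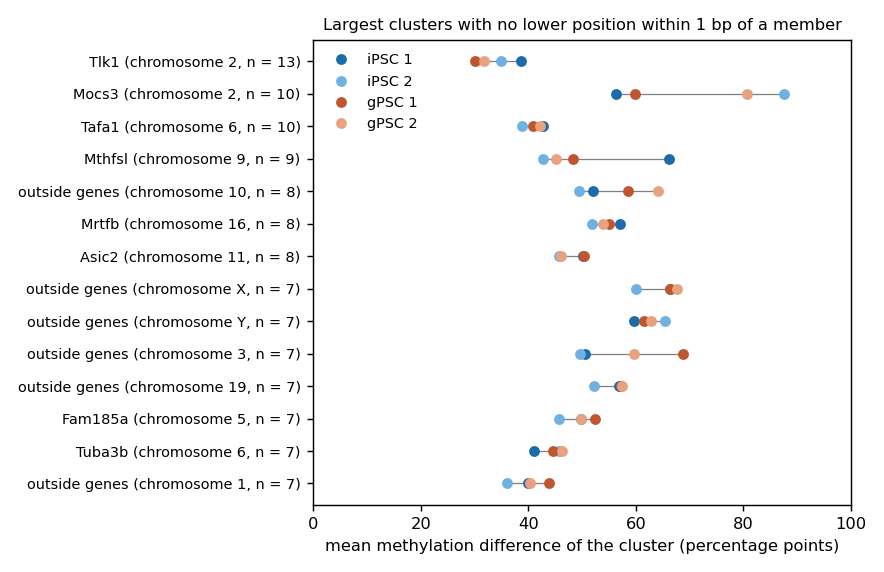
Mean methylation difference in percentage points of the 14 largest unopposed clusters in each of the 4 lines; each dot is the mean over the cluster's positions, n is their number, and grey lines join the lowest and highest line. Tlk1 has the lowest means, 30.1 to 38.7 points, and Mocs3 the widest span, 56.4 to 87.6 points.

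Clusters whose lines differed most were chosen as the 3 with the largest gap between kinds in each direction, and are given as values. Higher in iPSC were Zhx1, a zinc finger homeobox factor (iPSC mean of the lines 70.0 and 42.2, gPSC 27.4 and 25.6 points), Ggct, gamma-glutamylcyclotransferase (53.7 and 50.5 against 38.2 and 33.4), and Dnmt3b, a de novo DNA methyltransferase (63.4 and 46.3 against 31.8 and 48.2). All 3 were opposed throughout. Higher in gPSC were Frmd4a, a scaffold of cell polarity (39.3 and 44.9 against 68.4 and 59.6 points), Pqbp1, a splicing-linked protein on X (46.9 and 65.2 against 78.0 and 72.4), and a cluster in a predicted gene on chromosome 16 (5311384 the first position). None of these was opposed. Over all 211 clusters, both gPSC lines averaged above both iPSC lines in 54 and the reverse in 17.

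In all, 2154 genes held a line-shared position in their body or promoter, 8.83% of 24405 genes with any listed position, and 226 (0.926%) held 3 or more. Unopposed positions were in 1939 genes (7.95%). Predicted genes left aside, those with the most were Hnrnpu with 19, Dennd1b with 15, Ywhag and Epc2 with 14, Klf11 and Tlk1 with 13, Elk4 with 12, Hdgfl3 with 11 and Asic2, Dpm1, Mocs3 and Tafa1 with 10. Dpm1 and Mocs3 share the same 10 positions, and 8 of the 10 in Asic2 form a cluster. Ntm, a neural cell adhesion molecule, held 9 unopposed positions in its 968521 bp, with no cluster, at mean differences of 56.7, 52.4, 57.4 and 59.2 points in iPSC 1, iPSC 2, gPSC 1 and gPSC 2. Camta1, a calmodulin-binding transcription activator, held 8 of 340 listed positions in its 802246 bp, at 55.5, 54.2, 54.5 and 55.8 points. The 9 positions of Ntm were among 75 listed ones.

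In promoters, 346 genes held a line-shared position, 2.71% of 12752 promoters with a listed position, and 233 (1.83%) an unopposed one. Of 40 genes of meiosis and genome defence, 13 (32.5%) held a line-shared position, and 10 of the 30 promoters of the list with any listed position did, 9 of them unopposed. The list was drawn up with earlier results of these data known and includes genes already seen to be high in these lines, so its count is not independent evidence and its share is not compared with that of other genes. Tuba3b, an alpha-tubulin of the testis (chromosome 6, 145616016 to 145616102), had the most positions of the list, 7 just after the start. They averaged 41.1 and 45.7 points in the iPSC lines and 44.6 and 46.3 points in the gPSC lines, and GSC had 3 high positions within 100 bp. Its near-copy Tuba3a (chromosome 6, 125286033 to 125286048) had 3 at 52.9, 33.6, 48.1 and 42.8 points and 3 low GSC positions within 100 bp. Reads of the 2 copies could be exchanged, which was not tested.

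The other germline promoters held 1 to 3 line-shared positions, out of more that any table lists there. There were 33 listed in Dazl, 32 in Hormad1, 20 in Rpl39l and 17 in Mael. Asz1 had 9, Slc25a31 7, Stag3 5 and Tex101 2. GSC listed 20 of those in Dazl, 12 in Rpl39l, 4 in Hormad1, 4 in Asz1 and 2 in Stag3. It listed none in Mael, Slc25a31 and Tex101. Mael, a protein of piRNA-guided transposon silencing, had 2, at 55.8, 28.0, 54.0 and 58.7 points and at 59.2, 50.4, 64.6 and 69.0 points in iPSC 1, iPSC 2, gPSC 1 and gPSC 2. In both, iPSC 2 was the lowest line. Tex101, a surface protein of germ cells, had 1 at 69.8, 61.2, 62.7 and 56.5 points, and Slc25a31, the testis ADP/ATP carrier, 1 that ranged from 41.7 points in gPSC 2 to 60.4 in iPSC 2. Rpl39l, the testis paralogue of a large-subunit ribosomal protein, had 1 at 41.6, 40.4, 60.7 and 46.9 points, where gPSC 1 stood highest. Asz1, a piRNA factor, had 1 at 53.9, 33.7, 51.2 and 29.1 points, with the second line of each kind the lower. Dazl, an RNA-binding protein of germ cell development, had 1 at 39.1, 30.9, 27.5 and 50.3 points, and Stag3, the meiotic cohesin subunit, 1 at 31.9, 30.8, 39.8 and 29.1 points. Hormad1, a protein of the meiotic chromosome axis, had 3, all opposed, with means of 62.4, 32.3, 45.0 and 49.7 points. Outside promoters, Tdrd9, a piRNA helicase, had a cluster of 4 in its body (chromosome 12, 112020052 to 112020190) at 46.4, 41.7, 41.9 and 41.7 points.

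**Figure D5:**
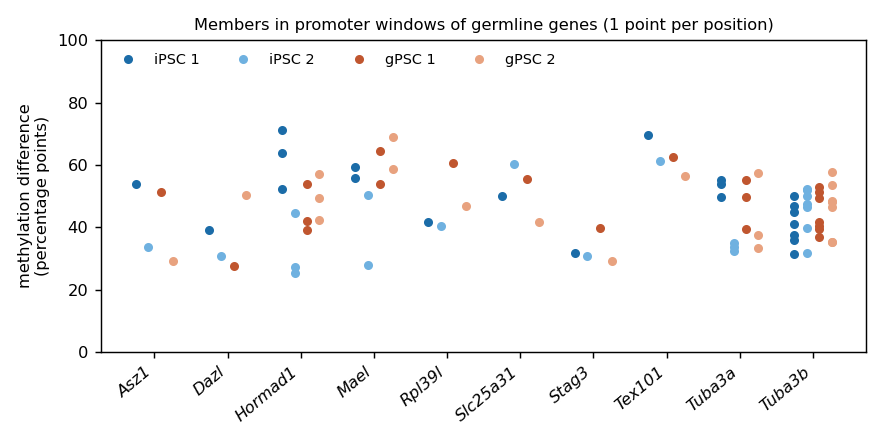
Methylation difference in percentage points at each line-shared position in the promoters of 10 germline genes; each dot is 1 position in 1 line. Values run from 25.4 points, for iPSC 2 at the opposed Hormad1, to 71.3 points, for iPSC 1 in the same gene.

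The other lists are given beside the 8.83% of all genes, and 2.71% of all promoters, that held a line-shared position. None of the 27 pluripotency genes with a listed position did, and nothing is read from so short a list. Of 42 lineage transcription factors 2 did, and Tbx5, a factor of heart and limb, held 5, of which 3 were opposed. Of 37 Hox genes 1 did, Hoxd3, with 3 positions and 2 opposed. The DNA methylation and chromatin list had 2 of 26 genes, Dnmt3b with 5 and Mbd1, a methyl-CpG binding protein, with 3, and all of these positions were opposed. Dnmt3b (chromosome 2, 153649709 to 153649736) averaged 63.4, 46.3, 31.8 and 48.2 points in iPSC 1, iPSC 2, gPSC 1 and gPSC 2, against −63.0, −45.5, −31.0 and −47.6 at its 6 low positions.

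Imprinted genes held line-shared positions in 5 of 37 (13.5%) and Wnt pathway genes in 7 of 40 (17.5%). None of the 18 and 22 promoters of these lists with a listed position held one, and nothing is read from so few. Usp29, an imprinted ubiquitin protease, had 3 at means of 36.6, 36.4, 34.0 and 36.7 points. Wnt5b, a Wnt ligand, had 3 at 77.2, 65.7, 75.5 and 72.4 points, and Ror2, a receptor of such ligands, 3 at 50.8, 35.8, 58.2 and 47.3 points. Spermatogonial stem cell genes gave 3 of 22, clustered protocadherins 8 of 49 genes with 1 position each, and the 2-cell-like list 1 of 1. Protocadherin genes nest in each other's bodies, and Pcdha1 to Pcdha7 all held the same position. It had 72.4, 89.8, 88.0 and 93.8 points in iPSC 1, iPSC 2, gPSC 1 and gPSC 2. Only Pcdhb1 held a different one, so the 8 of 49 is not a count of separate positions. Lists of other cell types that cultures can hold gave 1 of 18 genes for testis somatic cells and 2 of 18 for fibroblasts. Twist2, a factor of the fibroblast list, had 3 at 67.7, 66.4, 63.5 and 69.1 points.

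Absence from the GSC tables did not mean that GSC had no listed position nearby. A GSC position lay within 100 bp of 1642 line-shared positions (31.5%), and within 1000 bp of 3243 (62.2%). For positions high in the 4 lines and in GSC, another GSC position lay within 100 bp of 60.8%. Of the 1642, 1175 had high GSC positions alone, 263 low ones alone and 204 both. These counts were 1106, 165 and 99 for unopposed positions and 69, 98 and 105 for opposed ones. The unopposed positions had a GSC position within 100 bp in 28.9% and the opposed in 58.4%. At 1 bp on either side, GSC was listed for 132 line-shared positions. The 3175 GSC positions within 100 bp of a line-shared one were high in 82.8%, and all GSC positions in 82.9%. Next to unopposed positions 2306 of 2631 (87.6%) were high, and next to opposed ones 334 of 565 (59.1%), where a GSC position near both kinds counts in each. The median over all 3175 was 51.7 points when high, below the 65.3 points of all high GSC positions.

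By cluster, 103 of 211 had no GSC position within 100 bp, 80 had at least 1 high one and 28 had low ones alone. Clusters with no GSC position nearby included Hnrnpu, Ywhag, Epc2, Atp8b2 and Mthfsl of the 12 largest, and Tdrd9 among the germline genes. GSC reads over these stretches are not in the tables, so an unchanged and an unread stretch cannot be told apart.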

How the data were processed

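Reduced representation bisulfite libraries of 6 mouse lines were analysed from 10 tables, 1 of higher and 1 of lower methylation for each of 5 libraries. Per the submitters' processing notes the tools were methylKit, GATK, Bowtie2 and Bismark, with no versions, roles or order, and the build GRCm38 (mm10). The sources used here do not give coverage minimums or strand handling. The authors deposited for each position a p-value and a q-value and a methylation difference in percent points against the reference. Values in the tables reach up to q = 0.01 and start at an absolute difference of 25 points. Coverage and levels were not analysed here, so depth is unknown and no interval is given for a difference.

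Positions were joined by chromosome and position with Python 3.11.15, pandas 2.3.3 and numpy 2.4.6. The deposited tables give accessions and no gene names, so genes came from 34627 protein-coding and long non-coding RefSeq genes, and starts from 32851 RefSeq promoter entries (GRCm38.p6). These sources can place the start of a gene differently. Promoters on chromosome 18 were not analysed here. An opposed position had a lower-methylation position within 1 bp in any of the 4 lines. The cluster search was tested on simulated positions. Genes and clusters were named by a rule: most positions, largest clusters, most in promoters, list members with 3 or more, and the largest gaps between kinds, without predicted genes. The ranking of unopposed clusters, and germline promoters with fewer than 3 positions, were added after their values were seen. The positions, lists and rules were chosen with earlier results of these data known, and no test was made on them.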

Additional observations from a re-analysis of the deposited data

How the results depend on the processing

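The rule gave 5214 positions, 211 clusters and 2154 genes, with 11.5% of positions in promoters, 31.5% near a GSC position, and a mean over lines of the median difference of 58.0 points. Requiring at least 50 points in all 4 lines gave 2395 positions, 43 clusters, 1081 genes, 5.46% in promoters, 26.8% near GSC and 72.9 points. Requiring q at most 0.001 gave 122 clusters, 9.52% and 28.9%. Leaving out positions with lower methylation within 1 bp gave 6.86% in promoters and 28.9% near GSC, and within 50 bp 6.45% and 27.1%. Leaving out positions with a GSC listing at 1 bp gave 29.7% near GSC. Clusters of at least 5 numbered 65, and the share near GSC was 25.8% within 50 bp and 62.2% within 1000 bp. Merging positions 1 bp apart and a cluster span of 500 or 2000 bp gave values close to the main ones. With each line left out in turn, the rule asks for 3 lines and gave 7316 to 11265 positions, 327 to 708 clusters, 2894 to 3893 genes, 9.66% to 12.9% in promoters, 28.5% to 35.6% near GSC and 53.8 to 57.5 points. The highest counts came without gPSC 1. All 65 values were planned, of which 35 moved beyond the spread or by over 1.5 times. No paired analysis was possible because no result comes from a test and line numbers name independent lines. Depth is unknown, so unlisted positions set no limit on a level.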
